A study of Mus musculus with 25 samples.

Results

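The difference between cells sorted from bone marrow (BM) and from adult liver (AL) that ILC1s and NK cells had in common was measured by RNA sequencing. It rests on 11 of the 25 libraries of the series: 3 of BM immature ILC1s (BM iILC1s), 3 of AL IL-7R+ ILC1s (AL 7R+ ILC1s), 3 of BM NK cells and 2 of AL NK cells. A gene belongs to this shared difference, called the shared effect below, when it passed the test between the tissues in both cell types with the same sign. Of 12878 genes tested, 125 did so, 46 higher in marrow (0.357% of the genes tested) and 79 higher in liver (0.613%).

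Group 1 ILCs are innate lymphocytes that make interferon gamma and carry the receptors NK1.1 and NKp46. NK cells circulate, mature in the bone marrow and leave it as they gain granzymes, perforin and exit receptors. ILC1s stay in tissues such as the liver, and the marrow holds ILC1s regarded as immature. Both lineages hold cytotoxic granule proteins. Whether the marrow ILC1s give rise to those of the liver is an open question, and the comparison is between tissues and not between stages of 1 lineage.

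All 4 groups came from wild type C57BL/6 mice aged 8 weeks. The labels name no treatment, and the methods state that in several experiments, not named, mice received a nanobody that blocks the enzyme ARTC2.2 before sacrifice. The sort took CD3- NK1.1+ NKp46+ cells in each group. ILC1s were further CD49a+ and CD49b low, with IL-7R+ added for the liver group but not for BM iILC1s, and NK cells were CD49a- CD49b+. The study's methods call the libraries of a group biological replicates, and how many mice gave each library is not given in the sources used here. Liver cells were enriched on a density gradient and marrow cells were flushed, so tissue and cell preparation cannot be told apart. In these bulk samples fewer cells that express a gene and less RNA per cell cannot be told apart either.

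The libraries held 3973227 to 7995906 counts, and replicates within a group correlated at 0.965 to 0.980 in log2 counts. The sort genes fitted the gates except for 1. *Klrb1c* (NK1.1) and *Ncr1* (NKp46) lay between 1320 and 2483 CPM (counts scaled to library size) in the 11 libraries, and neither was called between the tissues in ILC1s or in NK cells. *Itga1* (CD49a) was 112 to 503 CPM in ILC1s and at most 6.62 in NK cells. *Cd3e*, a chain of the CD3 complex used as a negative gate, was 166, 133 and 183 CPM in BM iILC1s, at most 0.452 in AL 7R+ ILC1s and at most 0.220 in NK cells of either tissue.

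In ILC1s 704 genes were higher in marrow (5.47% of those tested) and 565 higher in liver (4.39%). In NK cells 170 were higher in marrow (1.32%) and 256 higher in liver (1.99%). Without the filter on low counts the balance in NK cells turned, with 422 higher in marrow and 294 in liver, and 110 and 92 genes were shared. The 46 shared genes higher in marrow made up 6.53% of that list in ILC1s and 27.1% of it in NK cells. The 79 higher in liver made up 14% and 30.9%. The 2 comparisons have no library in common. A further 41 genes were called with opposite signs, 30 of them higher in marrow in ILC1s.

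Over all 12878 genes the log2 fold changes of marrow over liver correlated at r = 0.198 (rho = 0.175) and had the same sign for 56.3%. Genes are not independent replicates, and these values are a description. Of the 704 genes higher in marrow ILC1s, 62.9% were above 0 in NK cells, beside 50.8% of all genes. Of the 565 higher in liver ILC1s, 65.7% were below 0 in NK cells. Starting from NK cells, 71.2% of the 170 genes higher in marrow and 70.7% of the 256 higher in liver had the same sign in ILC1s. The average of both effects was above 0 and called for 683 genes (5.3%) and below 0 and called for 625 (4.85%), and all 125 shared genes were among them. The difference of the effects was called for 298 genes with the higher value in ILC1s (2.31%) and 177 with the lower (1.37%), and 10 of the 125 shared genes were among these.

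**Figure D1:**
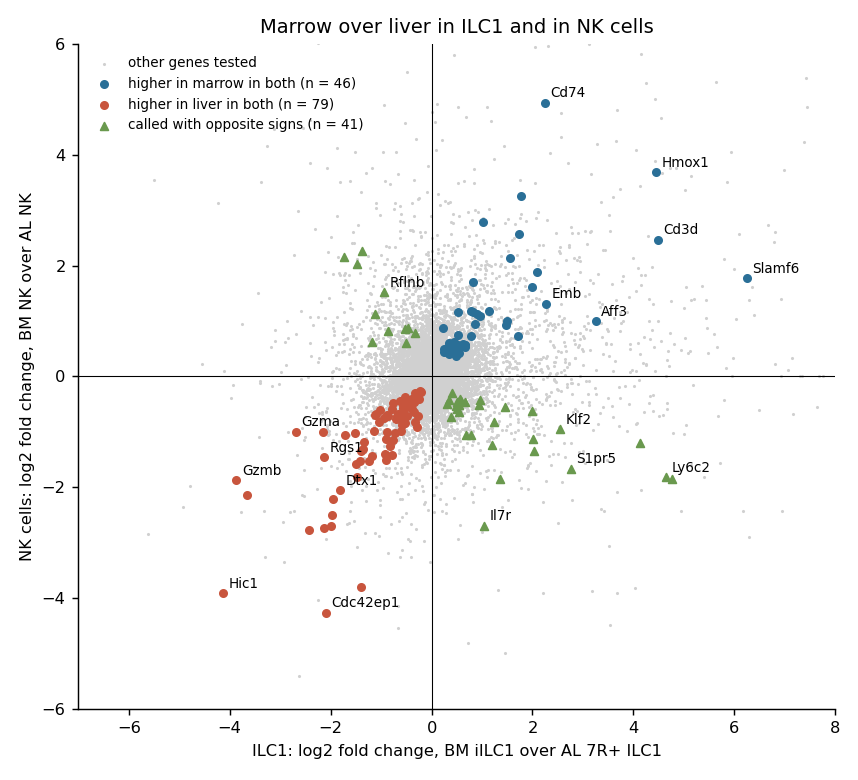
Log2 fold change of marrow over liver in ILC1s (x axis) and in NK cells (y axis) for each gene tested, with 20 genes outside the axes. The 46 blue and 79 red points are the genes called in both with the same sign, and the 41 green triangles were called in both with opposite signs.

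Most shared effects were modest. The smaller of a gene's 2 fold changes had a median of 0.65 on the log2 scale among the 46 genes higher in marrow and 0.68 among the 79 higher in liver, and both values were at least 1 for 12 and 23 genes. Shared genes were also abundant ones. Their average log2 CPM was over 6 for 60.9% and 65.8% of them, beside 29.5% of all genes tested. At the edge of the threshold, *Abca7* was inside with a larger adjusted p of 0.04999, and *Pxn* (0.05031), the lymphotoxin gene *Ltb* (0.0508) and *Ramp1* (0.05092) were just outside. The counts rest on few libraries, in particular on the 2 of AL NK cells. Without AL NK replicate 1 they were 15 and 43, and without AL NK replicate 2 they were 19 and 29. A smaller group passed in both cell types whichever library was left out, and under each change of the fit that was tried other than a minimum fold change. It comprised 5 genes higher in marrow (*Cd3d*, *Emb*, *Lyst*, *mt-Nd1* and *Slamf6*) and 17 higher in liver, among them *Gzmb*, *Prf1*, *Rgs1*, *Slamf7*, *Abcb1a*, *Rhoc*, *Fgl2*, *Klrb1b*, *Adgre5* and *Dnaja1*.

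Granule genes were among those higher in the liver cells of both types. Of 18 effector genes tested, 12 were higher in liver and none higher in marrow in ILC1s, beside 4.39% and 5.47% of all genes. In NK cells 6 were higher in liver and 2 in marrow, beside 1.99% and 1.32%. Those called in both were *Gzmb*, *Gzma*, *Prf1*, *Nkg7* and *Ccl5*, and the median log2 fold changes of the list were -0.88 and -0.28, beside -0.00 and 0.01 over all genes. *Gzmb*, granzyme B, the protease that triggers apoptosis in target cells (ENSMUSG00000015437, chromosome 14, 56258838 to 56262260 on the minus strand of GRCm38), was 1036, 1307 and 954 CPM in AL 7R+ ILC1s and 69.3, 69.4 and 87.2 in BM iILC1s. In NK cells it was 1094 and 1538 CPM in liver and 396, 292 and 386 in marrow. Neither pair of groups overlapped. The log2 fold change was -3.87 ± 0.17 (SE) in ILC1s (adjusted p = 3.64e-10, edgeR quasi-likelihood test) and -1.88 ± 0.16 in NK cells (adjusted p = 1.08e-05). The fall in marrow was larger in ILC1s, with a difference of -1.99 ± 0.23 (adjusted p = 5.40e-05).

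*Gzma*, granzyme A, had the same order at other levels. It was 1479, 1346 and 1266 CPM in liver and 208, 135 and 292 in marrow ILC1s, and 7538 and 7709 CPM in liver and 4089, 3482 and 3892 in marrow NK cells. Its log2 fold changes were -2.69 ± 0.18 and -0.9965 ± 0.18, and their difference of -1.69 was called too (adjusted p = 8.84e-04). *Prf1*, perforin, which lets granzymes into the target cell, had the larger estimate in NK cells, without a test of the difference given here. It was 412, 375 and 305 against 212, 173 and 189 CPM in liver and marrow ILC1s, and 1919 and 2123 against 819, 677 and 797 CPM in NK cells, with log2 fold changes of -0.93 ± 0.11 and -1.40 ± 0.12. *Nkg7*, a granule membrane protein, fell by 0.34 and 0.37 on the log2 scale in marrow. *Ccl5*, a chemokine stored in lymphocytes, fell by 0.26 in ILC1s and by 0.71 in NK cells. Not every member moved this way. *Gzmk*, granzyme K, was higher in marrow NK cells, at 33.5, 32.6 and 25.1 CPM against 9.15 and 11.2 in liver (adjusted p = 0.0400), and at most 0.481 in any ILC1 library. *Ifng*, interferon gamma, fell by 1.13 in marrow NK cells (adjusted p = 0.0150), and its value in ILC1s was -0.53 (adjusted p = 0.147).

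Several receptor and signalling genes were called higher in liver in both cell types, but receptor lists as a whole were not. Of 19 inhibitory and costimulatory receptors 1 was called in both with the same sign (medians -0.67 and 0.04). Of 20 cytokine receptors and 14 exit and homing receptors none was (DESeq2 also none). Of all genes, 0.357% were called higher in marrow and 0.613% higher in liver in both. *Rgs1*, which dampens signals from chemokine receptors, was 378, 362 and 412 CPM in liver ILC1s and 80.5, 85.7 and 97.8 in marrow ILC1s. In NK cells it was 66.0 and 61.6 in liver and 23.4, 18.42 and 27.98 in marrow. Its log2 fold changes were -2.13 ± 0.13 and -1.46 ± 0.15. *Slamf7*, an activating receptor of NK cells, was 364 to 384 CPM in liver ILC1s, 104 to 131 in marrow ILC1s, 118 and 145 in liver NK cells and 56.8 to 70.9 in marrow NK cells. *Cd244a* (2B4) and *Klrb1b*, both receptors of NK cells, were higher in liver by 0.76 and 0.52 in ILC1s and by 0.49 and 0.84 in NK cells on the log2 scale. The adaptors *Tyrobp* (DAP12) and *Fcer1g*, which pass on signals of activating receptors, fell by 0.53 and 0.38 on the log2 scale in marrow ILC1s and by 0.36 and 0.42 in marrow NK cells. Without the 2 libraries highest in myeloid markers (BM iILC1 replicate 2 and BM NK replicate 3) *Tyrobp*, like *Ccl5* above, was not called in both.

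*Itgb2*, the beta chain of the leukocyte integrins, was 1137 to 1253 CPM in liver and 924 to 1024 in marrow ILC1s, and 1753 and 1805 against 883 to 995 in NK cells. Its log2 fold change was larger in NK cells (-0.91 against -0.29), with a called difference of 0.61 ± 0.10 (adjusted p = 0.00204). *Icam1*, a ligand of these integrins, fell by 0.33 in marrow ILC1s and by 0.82 in marrow NK cells. *Entpd1* (CD39), which degrades extracellular ATP, was 118, 67.1 and 63.6 CPM in liver and 21.7, 34.7 and 32.9 in marrow ILC1s. In NK cells *Entpd1* was 63.5 and 96.1 CPM in liver and 18, 13.1 and 37.2 in marrow. *Dtx1*, a regulator of Notch signalling, was 225 to 253 CPM in liver and 58.6 to 75.7 in marrow ILC1s, and 33.3 and 12.01 against 7.92, 3.84 and 4.85 in NK cells, where the 2 liver libraries lay far apart. The drug transporter gene *Abcb1a* and the GTPase gene *Rhoc* fell by 1.41 and 1.40 on the log2 scale in marrow ILC1s and by 1.52 and 1.35 in marrow NK cells. *Hic1*, a transcriptional repressor, fell by 4.13 and 3.91, the largest shared effect among the 79 genes by the smaller of the 2 values. It was 76.0, 59.7 and 70.2 CPM in liver and 0.861, 3.66 and 7.14 in marrow ILC1s, and 4.87 and 5.74 in liver NK cells against 0.540, 0 and 0.441 in marrow. *F2rl2*, a receptor of the thrombin receptor family, fell by 1.51 and 1.03. *Camk2n1*, an inhibitor of calmodulin-dependent kinase II, fell by 1.23 and 1.53. *Gm4956*, annotated as a pseudogene and so uncertain where reads map to several copies, fell by 1.37 and 1.32. *Icam1* and *Camk2n1* were not called in both without the 2 libraries highest in myeloid markers.

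**Figure D2:**
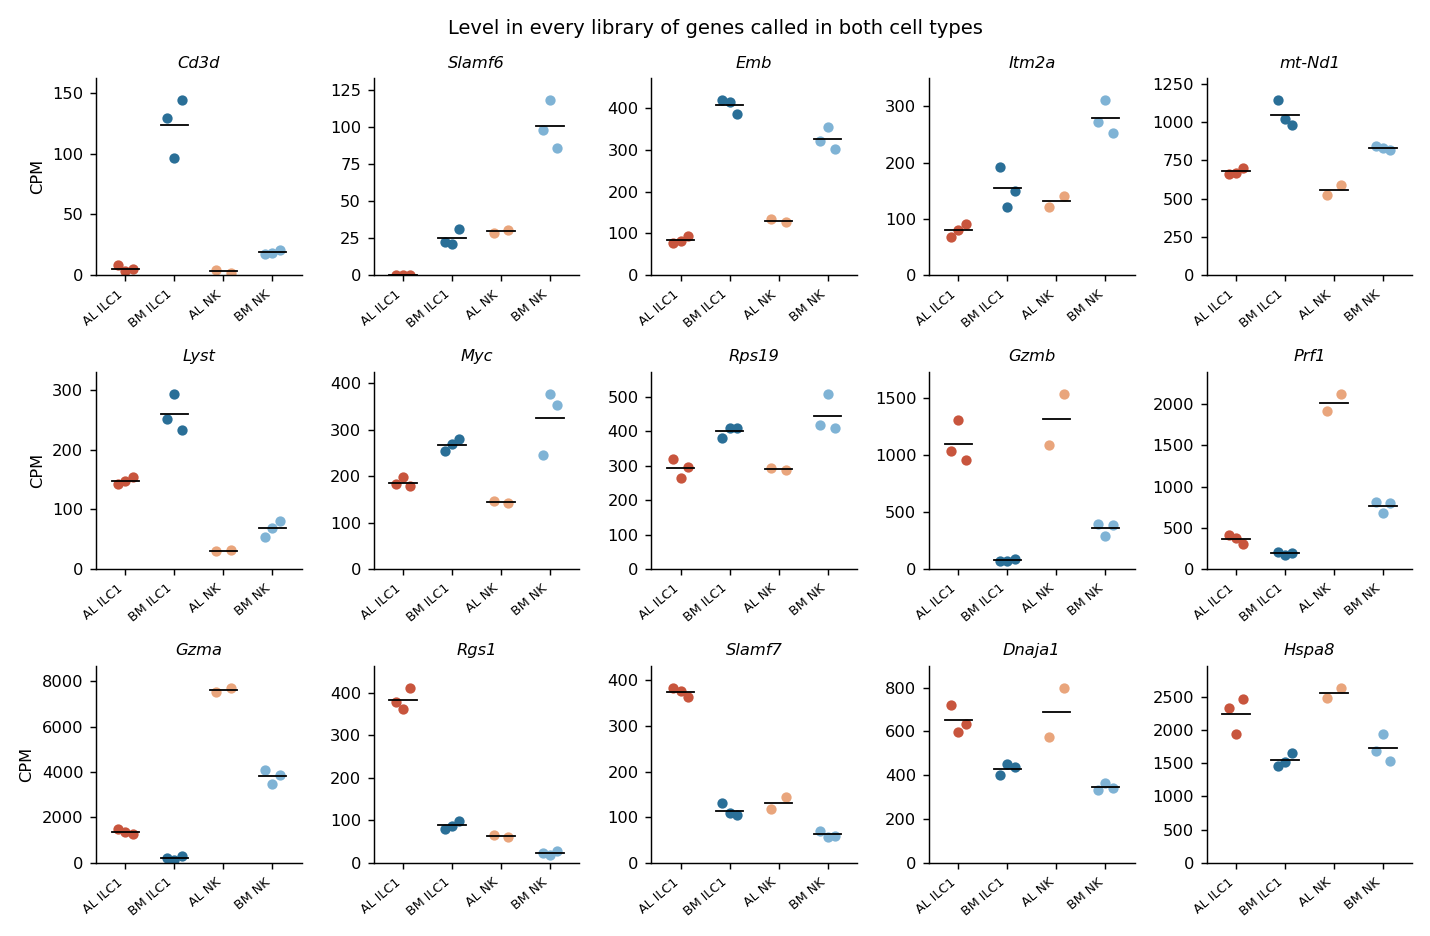
CPM in every library (points) and group means (lines) for 15 of the genes called in both cell types, with AL and BM marking liver and marrow. The first 8 genes are higher in marrow in both cell types and the last 7 higher in liver. *Gzmb* was at most 87.2 CPM in marrow ILC1s and at least 954 in liver ILC1s.

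Chaperones were higher in liver in both cell types. These proteins help others fold and rise in many cells under heat or protein stress. Of 11 heat shock genes tested, 10 had log2 fold changes below 0 in both, beside 3587 of all 12878 genes. In ILC1s 7 were called higher in liver and in NK cells 6, beside 4.39% and 1.99% of all genes. *Dnaja1*, *Hsph1*, *Hspa8* and *Hspa5* were called in both. The list's medians were -0.50 in ILC1s and -0.52 in NK cells. *Dnaja1*, a partner of HSP70, was 719, 600 and 632 CPM in liver and 400, 450 and 439 in marrow ILC1s, and 577 and 799 against 334, 367 and 343 in NK cells. *Hspa8*, the constitutive HSP70 of the cytosol, was 2326, 1940 and 2464 against 1462, 1521 and 1659 CPM in ILC1s, and 2483 and 2635 against 1690, 1937 and 1540 in NK cells. None of these 4 pairs of groups overlapped. This held for 124 of the 125 shared genes, which were chosen on these same values, so it adds nothing to the calls. *Hspa1b*, an inducible HSP70, was 6.23 and 24.5 CPM in liver NK cells and at most 1.76 in marrow NK cells. *Bag3*, a cochaperone, went against the list in ILC1s, at 3.23 to 5.63 CPM in marrow and 0.503 to 0.722 in liver. With the fit on all 8 groups 2 of the 4 shared calls remained.

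Immediate early genes respond within a short time to stimulation. Of 21 tested, 2 were higher in liver in both cell types, beside 0.613% of all genes. These were *Jun* and *Jund*, which code for parts of the AP-1 factor. *Jun* was 37.8, 30.6 and 33.9 CPM in liver and 11.4, 13.1 and 15.6 in marrow ILC1s, and 17.9 and 29.0 against 6.66, 11.5 and 12.6 in NK cells, with log2 fold changes of -1.35 and -1.19. *Gadd45b*, a stress gene, fell by 1.17 and 1.43 in marrow. *Junb* had opposite signs, and *Fos* (adjusted p = 0.643 and 0.830) and *Egr1* (0.290 and 0.875) did not pass the test in ILC1s or NK cells. Neither *Jun* nor *Jund* was called in both without the 2 libraries highest in myeloid markers, described with the marrow genes. Both calls were also lost when BM NK replicate 1 or BM NK replicate 2 alone was left out. Reads of *Jun*, *Abcb1a*, *Slamf7* and *Dnaja1* cannot be told from those of genes on the opposite strand that overlap them.

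The promoters shown are of genes higher in liver, and each holds at least 1 of the motifs marked in capitals. Most promoters of the genes higher in liver held neither of these motifs, so those shown do not stand for the set. RefSeq promoters on GRCm38.p6, from 250 bases before to 50 after the start, were matched by symbol for 31 of the 46 genes higher in marrow and 58 of the 79 higher in liver, several genes with more than 1 start. Letters were searched on both strands, and the motifs searched were TGANTCA (AP-1), TGACGTCA (cAMP response element), GAANNTTC (heat shock element) and, for NF-kB, GGG and CC with any 5 bases between. Matches of different motifs may overlap. Capitals mark the AP-1 or heat shock letters.
Gzmb (chr14:56262285-56262584, minus strand): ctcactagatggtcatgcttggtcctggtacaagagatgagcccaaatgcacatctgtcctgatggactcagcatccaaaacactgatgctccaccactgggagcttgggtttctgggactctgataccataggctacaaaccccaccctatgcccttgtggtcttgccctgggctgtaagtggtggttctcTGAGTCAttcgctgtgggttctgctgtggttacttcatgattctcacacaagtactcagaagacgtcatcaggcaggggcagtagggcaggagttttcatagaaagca
Slamf7 (chr1:171648950-171649249, minus strand): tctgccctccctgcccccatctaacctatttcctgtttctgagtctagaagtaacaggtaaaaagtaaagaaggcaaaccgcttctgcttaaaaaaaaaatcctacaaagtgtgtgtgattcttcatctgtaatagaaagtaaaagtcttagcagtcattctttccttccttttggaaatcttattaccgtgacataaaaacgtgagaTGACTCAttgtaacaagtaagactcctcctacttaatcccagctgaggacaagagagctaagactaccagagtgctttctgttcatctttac
Hspa5 (chr2:34771840-34772139, plus strand): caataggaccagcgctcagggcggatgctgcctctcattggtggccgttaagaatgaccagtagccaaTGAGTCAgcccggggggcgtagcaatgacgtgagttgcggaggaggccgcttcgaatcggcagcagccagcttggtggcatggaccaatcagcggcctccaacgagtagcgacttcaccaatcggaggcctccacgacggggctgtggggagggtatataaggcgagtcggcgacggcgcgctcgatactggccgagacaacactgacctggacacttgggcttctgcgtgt
Dnaja1 (chr4:40722218-40722517, plus strand): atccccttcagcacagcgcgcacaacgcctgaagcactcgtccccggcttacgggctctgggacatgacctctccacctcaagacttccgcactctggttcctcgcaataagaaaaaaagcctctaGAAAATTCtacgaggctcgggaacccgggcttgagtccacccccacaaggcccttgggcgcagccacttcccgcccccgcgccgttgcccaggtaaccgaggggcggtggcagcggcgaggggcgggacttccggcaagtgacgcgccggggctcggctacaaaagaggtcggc
Hsph1 (chr5:149636266-149636565, minus strand): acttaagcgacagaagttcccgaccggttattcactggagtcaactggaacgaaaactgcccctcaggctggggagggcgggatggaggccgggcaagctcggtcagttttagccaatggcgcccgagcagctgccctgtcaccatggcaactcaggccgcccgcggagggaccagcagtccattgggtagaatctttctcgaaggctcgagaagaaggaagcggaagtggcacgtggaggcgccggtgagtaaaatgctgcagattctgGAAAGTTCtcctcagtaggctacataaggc
Jun (chr4:95052173-95052472, minus strand): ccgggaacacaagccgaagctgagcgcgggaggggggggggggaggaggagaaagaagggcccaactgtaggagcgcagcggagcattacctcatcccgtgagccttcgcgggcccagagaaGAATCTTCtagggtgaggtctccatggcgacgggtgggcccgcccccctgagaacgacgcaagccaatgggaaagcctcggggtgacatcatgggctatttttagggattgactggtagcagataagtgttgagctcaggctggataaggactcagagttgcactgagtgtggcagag
The AP-1 letters stand in *Gzmb*, *Slamf7* and *Hspa5*, and the heat shock letters in *Dnaja1*, *Hsph1* and *Jun*. Among promoters of the genes higher in liver, 9 of 70 (12.9%) held the AP-1 letters, beside 0 of 36 of those higher in marrow and 4.87% of the promoters of all genes tested. The heat shock letters were in 8.57%, 5.56% and 5.82% of the same 3 sets, the cAMP element in 0, 5.56% and 3.12%, and the NF-kB letters in 60%, 83.3% and 66.6%. A match of letters does not show that a factor binds there.

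Among the genes higher in marrow in both cell types, *Cd3d* was the 1 gene of the CD3 complex. *Cd3d*, the delta chain of CD3 (chromosome 9, 44981786 to 44987339), was 130, 96.3 and 144 CPM in BM iILC1s and 8.37, 3.37 and 4.78 in AL 7R+ ILC1s. In NK cells *Cd3d* was 17.8, 18.6 and 20.5 CPM in marrow and 4.48 and 2.09 in liver. Its log2 fold changes were 4.49 ± 0.28 (adjusted p = 2.71e-08) and 2.47 ± 0.36 (adjusted p = 0.00118). *Cd3e* was high in the same BM iILC1 libraries and near 0 in NK cells, and *Trac*, the constant part of the T cell receptor alpha chain, was 145 to 218 CPM in BM iILC1s against 13.0 to 16.9 in AL 7R+ ILC1s. The 8 T cell markers summed to 1142 to 1369 CPM in BM iILC1s and 1264 to 1342 in AL 7R+ ILC1s, and to 602 to 699 and 535 to 580 CPM in marrow and liver NK cells. Of the 5 T cell markers tested, 2 were called higher and 1 lower in marrow in ILC1s, beside 5.47% and 4.39% of all genes. None was called in NK cells. The part of T cells in *Cd3d* was not tested.

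*Slamf6*, a receptor of early lymphocytes, was 22.6, 20.9 and 31.4 CPM in marrow ILC1s and at most 0.452 in liver ILC1s, and 97.7, 118 and 85.5 against 28.2 and 30.8 in NK cells. Both log2 fold changes were called (6.25 ± 0.35 and 1.77 ± 0.22), as was their difference. *Emb*, an adhesion protein found on lymphoid progenitors, was 419, 414 and 387 CPM in marrow and 78.2, 81.3 and 93.5 in liver ILC1s, and 321, 356 and 301 against 135 and 127 in NK cells. Reads of *Emb* cannot be told from those of the antisense gene *Gm17509*, since the counting is not stated to use strand. *Itm2a*, a membrane protein of lymphocytes in development, was 193, 122 and 149 CPM against 67.2, 79.9 and 91.2 in ILC1s and 272, 311 and 253 against 122 and 142 in NK cells. *Lyst*, which controls the size of lysosomes and granules, rose by 0.81 and 1.16 on the log2 scale. *Aff3*, a nuclear factor of lymphoid cells, rose by 3.26 and 0.9975, and *Kbtbd11* by 1.47 and 0.93. *Jaml*, an adhesion receptor, rose by 2.00 and 1.61. The motor protein gene *Kifc3* rose by 0.91 and 1.12, and *Alg8*, an enzyme of protein glycosylation, by 0.85 and 0.95. *Tnfrsf13c*, the receptor for BAFF, rose by 0.83 and 1.71. The 12 B cell markers summed to 397 to 428 CPM in BM NK cells and 223 to 246 in AL NK cells, and to 511 to 572 in BM iILC1s and 617 to 682 in AL 7R+ ILC1s. Their part in *Tnfrsf13c* was not tested. Without the 2 libraries highest in myeloid markers *Tnfrsf13c*, *Jaml*, *Aff3* and *Alg8* were not called in both. Of 15 early lymphoid genes, 8 were higher and 2 lower in marrow in ILC1s, beside 5.47% and 4.39% of all genes. In NK cells 3 were higher and 1 lower, beside 1.32% and 1.99%. *Emb* was the member called in both with the same sign. *Tcf7* and *Lef1*, transcription factors of early lymphocytes, rose by 1.29 and 2.04 in marrow ILC1s and were at 0.22 (adjusted p = 0.622) and 0.32 (adjusted p = 0.138) in NK cells.

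A few genes of growth and division were called higher in marrow in both cell types, and others higher in liver. *Myc*, a driver of growth and ribosome production, was 254, 270 and 280 CPM in marrow and 182, 199 and 178 in liver ILC1s, and 245, 377 and 354 against 147 and 143 in NK cells. Of 21 cell cycle genes, 17 had fold changes above 0 in both cell types, with medians of 0.36 and 1.54. Of all 12878 genes tested, 3662 were above 0 in both. Only 1 cell cycle gene was called higher in marrow in ILC1s and 4 in NK cells, beside 5.47% and 1.32% of all genes. The member called in both was *Ccnb1*, cyclin B1, at 12.3, 8.83 and 3.68 CPM against 2.04, 2.89 and 2.52 in ILC1s and 46.4, 97.9 and 42.1 against 7.98 and 13.1 in NK cells. The kinetochore motor gene *Cenpe* rose by 1.55 and 2.13, the phosphatase gene *Cdc25b* by 1.71 and 0.74, and the kinase gene *Cdk6* by 0.78 and 0.72. *Ccdc88a*, an actin-binding protein, rose by 1.14 and 1.18. The D-type cyclins *Ccnd2* and *Ccnd3*, which act early in the cycle, were higher in liver, by 0.49 and 0.36 in ILC1s and by 0.46 and 0.65 in NK cells. Without the 2 libraries highest in myeloid markers *Cdk6*, *Ccnd2* and *Ccnd3* were called in both, and *Myc*, *Ccnb1*, *Cenpe*, *Cdc25b* and *Ccdc88a* were not.

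Ribosomal protein genes and the genes of the mitochondrial genome moved together by small amounts. Of 81 cytosolic ribosomal protein genes, 76 were above 0 in both cell types, with medians of 0.22 and 0.36. Of all 12878 genes tested, 3662 were above 0 in both. In ILC1s 13 ribosomal protein genes were called higher in marrow, in NK cells 20, and 10 in both, beside 5.47%, 1.32% and 0.357% of all genes. *Rps19*, a protein of the small ribosomal subunit, was 381, 410.1 and 409.8 CPM in marrow and 319, 265 and 298 in liver ILC1s, and 418, 508 and 409 against 293 and 289 in NK cells. Its log2 fold changes were 0.45 ± 0.10 and 0.61 ± 0.11. Neither pair of *Rps19* groups overlapped, which likewise adds nothing to its calls. Many of these genes have near-identical pseudogenes, so single values are uncertain. Of 12 mitochondrially encoded genes, 11 were above 0 in both, beside the same 3662 of 12878 genes. *mt-Nd1*, *mt-Nd5*, *mt-Nd6* and *mt-Cytb* were called in both. *mt-Nd1*, a subunit of complex I, was 1143, 1021 and 984 CPM in marrow and 665, 671 and 699 in liver ILC1s, and 844, 833 and 821 against 522 and 591 in NK cells, with log2 fold changes of 0.63 ± 0.08 and 0.58 ± 0.09. *mt-Nd5* and *mt-Nd6* overlap on opposite strands.

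The same was seen in each library's share of counts. Ribosomal protein genes took 1.79% to 2.27% of the counts in the 6 marrow libraries and 1.47% to 1.65% in the 5 liver libraries. Mitochondrial genes took 0.553% to 0.680% and 0.332% to 0.541%. The tissues did not overlap in either share. Of 74 nuclear genes of oxidative phosphorylation, whose products join the mitochondrial ones in the same complexes, edgeR called none in ILC1s, NK cells or their mean. At an unadjusted p under 0.05 there were 4, 7 and 3, and DESeq2 called 0, 1 and 0. Scaling with RLE size factors moved the median fold change of all genes by at most 0.0066. Without the 2 libraries highest in myeloid markers, 5 ribosomal protein genes were called in both, and of the 4 mitochondrial genes *mt-Nd6* was not.

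**Figure D3:**
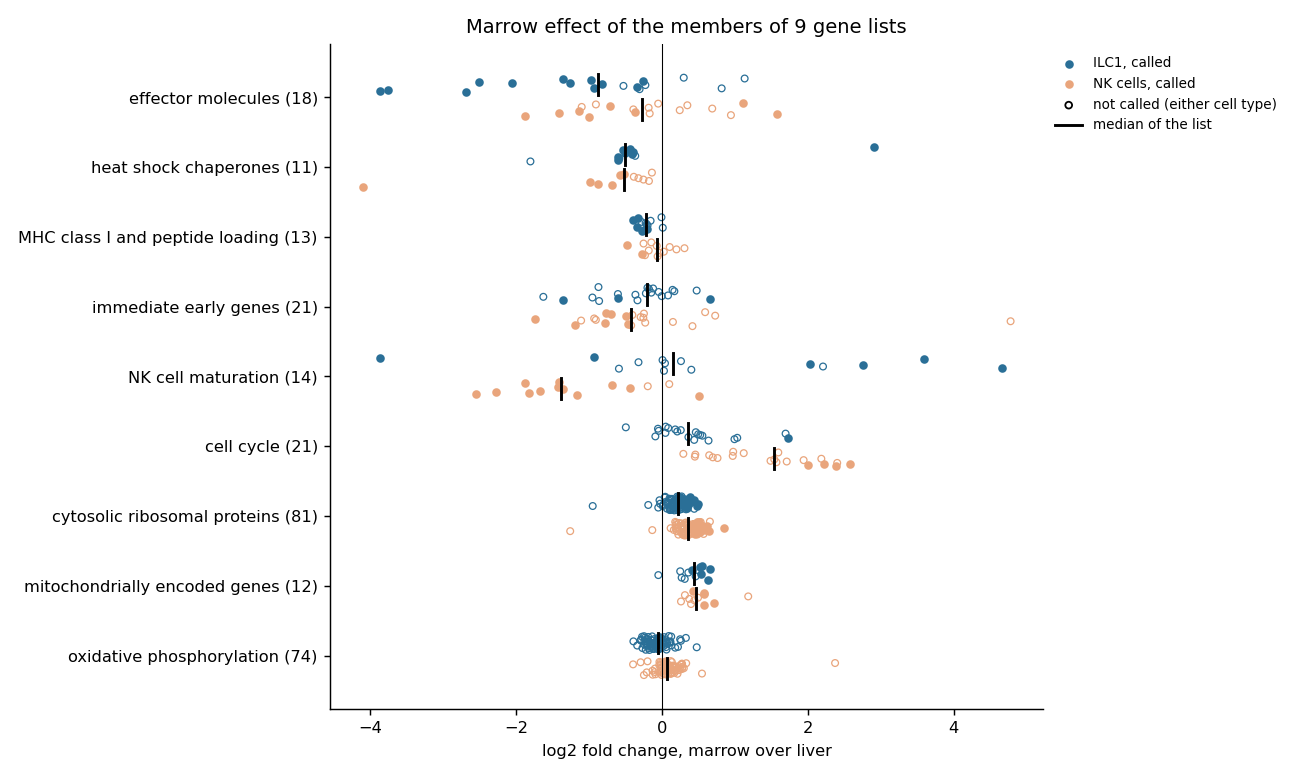
Log2 fold change of marrow over liver for the tested members of 9 gene lists in ILC1s (blue) and NK cells (orange), with filled points for genes called and black bars for medians. Effector and chaperone genes lie mostly below 0 in both cell types, and ribosomal and mitochondrially encoded genes mostly above 0. Of the 14 NK maturation genes, 10 are above 0 in ILC1s and 2 in NK cells, and 4 are below 0 in both.

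Some genes higher in marrow are given here beside markers of other cells, and their order over the replicates was not always that of the markers. *Hmox1*, which degrades heme and is high in macrophages, was 48.6, 91.3 and 72.3 CPM in BM iILC1s against 6.56, 1.93 and 1.64 in AL 7R+ ILC1s. In NK cells *Hmox1* was 5.94, 7.10 and 9.25 CPM in marrow and 0.974 and 0 in liver. *Axl*, a receptor tyrosine kinase, was 65.0, 68.1 and 71.4 against 19.9, 28.9 and 12.3 CPM in ILC1s, and 2.52, 4.03 and 7.27 against 0 and 1.04 in NK cells. *Cd74*, the MHC class II invariant chain, was 238, 162 and 68.2 against 50.0, 11.6 and 36.2 CPM in ILC1s, and 7.74, 20.3 and 58.0 against 0.584 and 1.31 in NK cells. *Lgals3*, galectin-3, was 57.45, 65.91 and 51.49 against 23.74, 18.28 and 19.88 CPM in ILC1s. In NK cells *Lgals3* was 42.83, 49.51 and 29.75 CPM in marrow and 18.89 and 22.19 in liver.

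The 10 Kupffer cell markers, of which *C1qa*, *C1qb* and *C1qc* are shared by other macrophages, summed to 133 to 177 CPM in BM iILC1s, 4.57 to 19.9 in AL 7R+ ILC1s, 8.998 to 22.5 in BM NK cells and 4.70 to 5.45 in AL NK cells. *Clec4f*, a defining gene of Kupffer cells, was at most 0.216 CPM in BM iILC1s. The 15 myeloid markers summed to 140, 2014 and 88.1 CPM in BM iILC1s and 3.42, 9.40 and 203 in BM NK cells, and to at most 8.05 in any liver library. BM iILC1 replicate 2 held *Mpo* at 806 CPM, and BM NK replicate 3 held *Lyz2* at 195. The part of these cells in *Hmox1*, *Axl*, *Cd74* and *Lgals3* was not tested. The 13 hepatocyte markers summed to 3.26 to 20.1 CPM over the 11 libraries. The 10 erythroid markers summed to 383 to 571 CPM in BM iILC1s, 197 to 305 in AL 7R+ ILC1s, 394 to 523 in BM NK cells and 346 to 422 in AL NK cells. These sums hide larger changes of single markers. Of the 6 erythroid markers tested, 5 were called higher in marrow in ILC1s and none in NK cells, beside 5.47% and 1.32% of all genes. Their median log2 fold changes were 7.65 in ILC1s and -2.13 in NK cells. None of the 125 shared genes was on a list of markers of another cell type. The lists did not hold *Cd3d*, *Tnfrsf13c*, *Cd74* or *Hmox1*, so this count does not test the part of other cells. Without BM iILC1 replicate 2 and BM NK replicate 3, 25 genes were called higher in marrow and 52 higher in liver in both cell types, of which 21 and 45 were among the 46 and 79. *Gzmb*, *Prf1*, *Rgs1*, *Slamf7*, *Emb* and *Cd3d* were among these, as were *Hmox1* and *Lgals3*, but *Cd74* and *Axl* were not called in both. This fit also has fewer libraries, so a call lost or kept in it does not tell whether other cells took part.

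**Figure D4:**
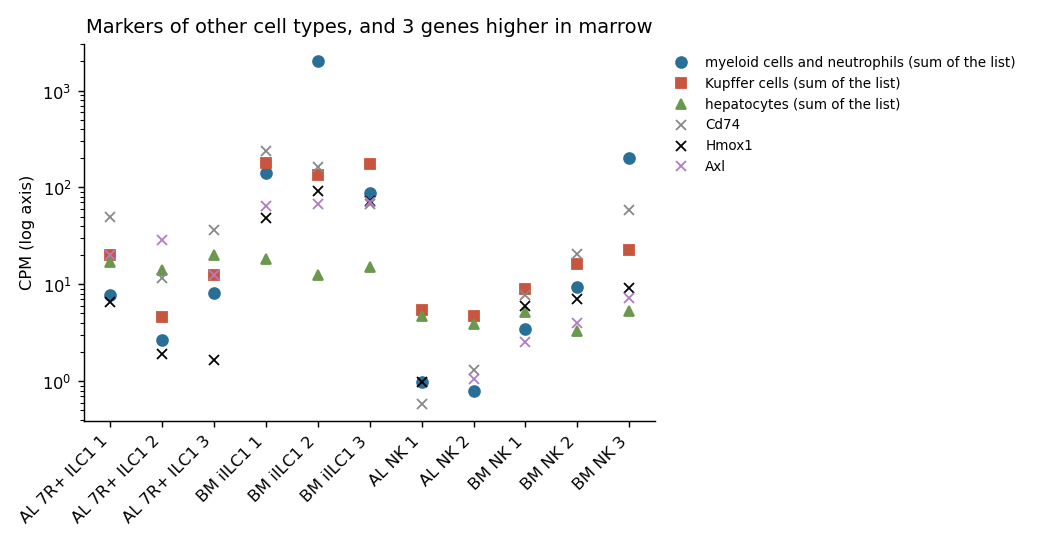
Summed CPM of myeloid, Kupffer cell and hepatocyte markers, and CPM of *Cd74*, *Hmox1* and *Axl*, in each of the 11 libraries on a log axis (values of 0 are not drawn). The myeloid sum is highest in BM iILC1 replicate 2, at 2014, and BM NK replicate 3, at 203.

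The remaining genes higher in liver in both cell types had varied roles. *Slc2a3*, a glucose transporter and the member of 18 glycolysis and hypoxia genes called in both, fell by 1.04 in marrow ILC1s and by 0.82 in marrow NK cells on the log2 scale. *F2r*, the thrombin receptor PAR1 and a relative of *F2rl2*, fell by 1.10 and 0.68. *Stip1*, a partner of HSP70 and HSP90 that was not on the chaperone list, fell by 0.62 and 0.44. *Rac2*, a GTPase of blood cells that acts on actin, and *Prkch*, a protein kinase C, fell by 0.23 and 0.34 in ILC1s and by 0.26 and 0.40 in NK cells. *Litaf*, *Dapk2*, *Phactr2*, *Cemip2*, *Cited4*, *Metrnl* and *Chsy1* lay between -0.89 and -1.14 in ILC1s and between -0.60 and -1.52 in NK cells. *Rn7sk*, a small nuclear RNA that holds back transcription elongation, fell by 2.42 and 2.76. *Bcl2a1d*, an inhibitor of apoptosis, and *Tcrg-C4*, a T cell receptor gamma constant gene, have near-identical copies, and their values are uncertain. *Rac2*, *Prkch*, *Phactr2*, *Cemip2* and *Chsy1* were not called in both without the 2 libraries highest in myeloid markers. Of the 79 genes, 70 were annotated as protein coding, as were all 46 of the genes higher in marrow.

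Those higher in marrow and not yet named were mostly small in effect. *Ndrg1*, a gene of the hypoxia and stress response, rose by 2.09 and 1.88. *Rbm3*, an RNA-binding protein induced by cold, rose by 0.66 and 0.52, and *Dkc1*, the pseudouridine synthase of ribosomal RNA, by 0.66 and 0.57. *Vars*, the valyl-tRNA synthetase, rose by 0.23 and 0.87, with a called difference. *Ndrg1*, *Dkc1* and *Vars* were not called in both without the 2 libraries highest in myeloid markers. *Rpl3*, *Rpl13*, *Rpl14*, *Rpl32*, *Rplp0*, *Rps3a1*, *Rps7* and *Rps18*, ribosomal protein genes called in both, lay between 0.24 and 0.40 in ILC1s and between 0.40 and 0.60 in NK cells.

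Small shared shifts were found in antigen presentation. *H2-D1*, an MHC class I chain, was 6410 to 6751 CPM in liver and 5525 to 5911 in marrow ILC1s, and 6736 and 5949 against 5057 to 5509 in NK cells. With *Calr*, a chaperone of peptide loading, it was called higher in liver in both cell types. Of the 13 genes of this list, 6 were called higher in liver in ILC1s and 2 in NK cells, beside 4.39% and 1.99% of all genes. Neither of the shared calls held without the 2 libraries highest in myeloid markers.

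The sign of the tissue effect depended on the cell type for 41 genes. Of these, *Ly6c2*, *S1pr5* and *Zeb2* were on the list of 14 NK maturation genes, and *S1pr5* and *Klf2* on that of 14 exit and homing receptors. Of the maturation genes, 11 were higher in liver and 1 in marrow in NK cells, beside 1.99% and 1.32% of all genes. In ILC1s 4 were higher in marrow and 2 in liver, beside 5.47% and 4.39%. The 2 called in liver in both cell types, *Gzmb* and *Prf1*, are also on the effector list. *Ly6c2*, a surface protein of mature NK cells, was 589, 470 and 626 CPM in marrow and 19.4, 23.3 and 23.7 in liver ILC1s, but 62.5, 44.0 and 114 in marrow and 230 and 287 in liver NK cells. *S1pr5*, a receptor for exit from the marrow, was 11.8, 16.2 and 22.3 against 4.52, 1.93 and 1.51 CPM in ILC1s and 288, 203 and 260 against 790 and 799 in NK cells. *Klf2* and *Zeb2*, transcription factors of lymphocyte traffic and NK maturation, rose in marrow ILC1s by 2.55 and 2.03 and fell in marrow NK cells by 0.96 and 1.35. *Il7r*, part of the liver gate, was 1303, 1144 and 1213 against 532, 606 and 636 CPM in ILC1s and at most 4.41 against 28.8 and 19.1 in NK cells. In the other direction *Rflnb*, *Nrgn*, *Lpar6*, *Dusp6* (a brake on ERK signalling) and *Etv3* fell in marrow ILC1s by 0.94, 1.11, 1.18, 0.86 and 0.53 and rose in marrow NK cells by 1.52, 1.12, 0.62, 0.82 and 0.86.

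The 4 groups that played no part in choosing the genes were placed on a scale between the liver and marrow means, with CPM scaled over all 8 groups. AL IL-7R- ILC1s (4 libraries) were on the liver side for 39 of the 46 genes higher in marrow (84.8%) and 74 of the 79 higher in liver (93.7%), beside 62.9% of all genes tested. In all 4 libraries 35 and 67 of them were. *Gzmb* was 4868 ± 765 CPM (SD, n = 4) in these cells on this scale, while AL 7R+ ILC1s had 1006 ± 171 (n = 3) and BM iILC1s 68.98 ± 9.94 (n = 3). *Slamf7* was 399 ± 14.5 and *Rgs1* 446 ± 14.6, also on the liver side. Exceptions included *Cd3d*, at 39.9 ± 5.86 in AL IL-7R- ILC1s against 5.03 ± 2.34 in AL 7R+ ILC1s.

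Fetal liver group 1 ILCs (4 libraries, 2 of which differed by little more than sampling noise and were counted as 1 sample) were on the liver side for 41.3% and 49.4% of the genes, beside 43.8% of all genes. *Gzmb* was 6533 ± 27.7 CPM (n = 3) there, above every adult group, while *mt-Nd1*, at 1203 ± 52.6, was above the marrow groups and *Dnaja1*, at 397 ± 17.5, close to BM iILC1s (394 ± 24.9). ILC1s of the small intestinal lamina propria were on the liver side for 60.9% and 72.2% (all genes 55.3%) and group 1 ILCs of the salivary gland for 45.7% and 58.2% (all genes 54.0%). *Rgs1* was 5546 ± 502 (n = 4) and 3646 ± 64.3 CPM (n = 2) in these, and *Emb* 2411 ± 210 and 151 ± 8.66.

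**Figure D5:**
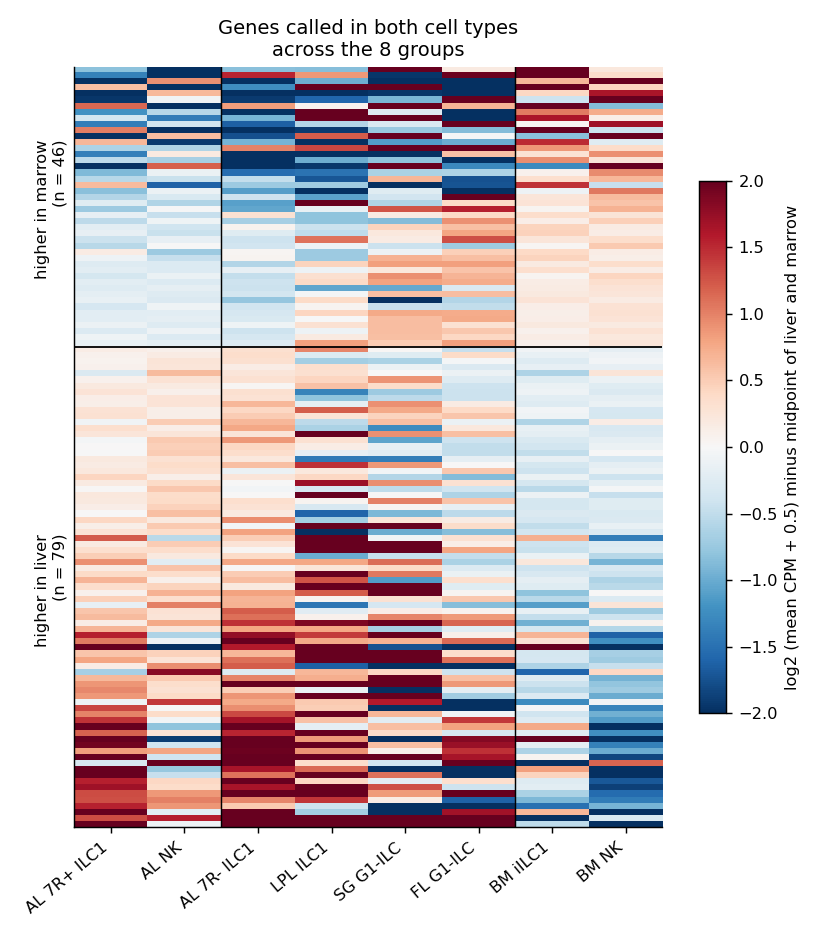
Log2 (group mean CPM + 0.5) of the 125 genes (rows) in the 8 groups (columns), as the distance from the midpoint of liver and marrow, with colours capped at 2. The first 2 columns are the liver groups and the last 2 the marrow groups of the comparison. AL IL-7R- ILC1s were on the liver side for 39 of 46 and 74 of 79 genes, counted from means of log2 values.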

How the data were processed

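Per the submitters' notes and the study's methods, the authors used fastp 0.23.0 for trimming, HISAT2 2.1.0 for alignment (mm10) and featureCounts (Subread 1.6.5) for the raw counts they deposited, which cover 46078 Ensembl identifiers, 935 without a symbol here. The annotation release and strand setting are not given in the sources used here. Libraries were made from sorted cells with a SMART-seq kit. The 11 libraries of 4 groups were fitted with edgeR 4.0.16 (R 4.3.3): TMM scaling, filterByExpr with a minimum count of 10, 1 coefficient per group, the quasi-likelihood test, and Benjamini-Hochberg adjustment over 12878 genes at 0.05. Levels are CPM after TMM scaling. Each SE was derived from this test, as the absolute log2 fold change divided by the square root of its F statistic. Named genes were the 12 per direction with the largest smaller fold change among shared genes with an average log2 CPM of at least 4 and no overlap of groups, up to 5 genes per direction of opposite sign, sort genes and members of the lists. *Hmox1*, *Axl*, *Slamf6*, *Hic1*, *Lyst* and other shared genes outside this rule were chosen after their values were seen. The genes and lists were chosen with earlier results of these data known. Alternatives were DESeq2 1.42.0, RLE size factors, other filters, more groups, a replicate block, a minimum fold change, thinned libraries and leaving out libraries. Leaving out BM iILC1 replicate 2 and BM NK replicate 3 together was chosen after seeing the data. The fits were tested on simulated data. Coordinates are of GRCm38. 1 gene called in both cell types is counted but not reported here by name.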

Additional observations from a re-analysis of the deposited data

Results flagged for a closer look

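The tissue effect differed between ILC1s and NK cells for 14 of the genes chosen by rule. The edgeR test was of the difference itself (log2 fold change in ILC1s minus that in NK cells). Among genes called in both with the same sign it was 2.02 for *Cd3d*, 0.95 for *Emb*, 2.26 for *Aff3* and -1.99 for *Gzmb*. Among genes of opposite sign it was 6.48 for *Ly6c2*, 4.42 for *S1pr5*, 3.74 for *Il7r*, 3.50 for *Klf2* and 3.38 for *Zeb2*, and -2.46 for *Rflnb*, -2.23 for *Nrgn*, -1.80 for *Lpar6*, -1.68 for *Dusp6* and -1.39 for *Etv3*. *Il7r* was part of the gate of the liver ILC1s and not of the others.

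In groups outside the comparison, 3 single libraries lay far from the rest of their group by Dixon's test. *Ccdc88a* was 14.96 CPM in lamina propria ILC1 replicate 4 and 1.72 to 3.05 in the other 3. *Alg8* was 19.38 CPM in AL IL-7R- ILC1 replicate 1 and 12.3 to 13.2 in the other 3. *Abcb1a* was 498.1 CPM in lamina propria ILC1 replicate 3 and 651.3 to 656.2 in the other 3. The test was run on 48 groups of values, of which chance flags about 1 in 20.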

How the results depend on the processing

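Under the alternatives tried, none of the 68 fold changes checked changed sign. These were of the 12 shared and 5 opposite genes per direction chosen by rule, and not of the other genes given by name. Without the filter on low counts the balance of calls turned: in NK cells 422 genes were higher in marrow and 294 in liver (170 and 256 with it). Then 110 and 92 genes were shared (46 and 79), 40 and 69 of them the same genes. DESeq2 gave 350 genes higher in marrow and 389 higher in liver in NK cells, 287 with a lower effect in ILC1s, and 80 shared genes higher in marrow and 108 in liver. Without the filter 364 had a lower effect in ILC1s. The fit on all 8 groups gave 27 shared genes higher in marrow and 70 in liver. A log2 fold change of at least 1 left 402 and 193 genes in ILC1s, 77 and 82 in NK cells, 281 and 98 in the mean, 106 lower in ILC1s, and 12 and 23 shared genes. Without BM iILC1 replicate 2 and BM NK replicate 3, chosen after seeing the data, the mean effect was higher in liver for 415 genes and 25 and 52 genes were shared. Leaving out 1 library at a time gave 516 to 694 and 395 to 550 genes in ILC1s, 46 to 217 and 69 to 284 in NK cells, 411 to 697 and 343 to 581 in the mean, 192 to 284 and 126 to 178 for the difference, and 15 to 50 and 29 to 75 shared genes. The shared genes higher in marrow were 29 without BM iILC1 replicate 2 and 20 without BM NK replicate 2. Those higher in liver were 48 without BM NK replicate 1 and 38 without BM NK replicate 2. Leaving out AL NK replicate 1 or 2 leaves that group with 1 library, assumed to vary like the others. Libraries with the same replicate number did not deviate together (mean r = -0.0071 over 15 pairs, 3 of 11 libraries correlating best with their own number). With the replicate block 43 and 73 genes were shared, 36 and 68 of them the same genes, and the counts were 638 and 540 in ILC1s, 160 and 211 in NK cells. Of the 68 values checked, 36 passed in each of 21 settings. Depth limits low genes most: 33200 of 46078 identifiers were below the filter.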
